A study of Drosophila melanogaster with 4 samples.

Results

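Broad domains of histone H4 lysine 16 acetylation (H4K16ac) on the X chromosome of Drosophila melanogaster were defined by width alone, as the regions on X that span at least 10 kb in the combined list of enriched regions deposited for the series. There were 261 such domains among 2204 regions on X and 6550 regions in all. The series profiled wild-type embryos of the strain Oregon-R (Oregon-R-modENCODE), aged 14 to 16 h, by chromatin immunoprecipitation followed by sequencing (ChIP-seq) with an antibody labelled H4K16ac(M). There were 2 ChIP replicates, each with an input of the same number (chromatin sequenced without immunoprecipitation) as the control of its list. All 4 samples share strain, genotype and stage, and the labels do not state the sex of the embryos. Separate collections of embryos are not stated for the replicates either, and differences between them may be technical.

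In flies the X chromosome of males is transcribed more strongly than either X of females, which balances the dose of X-linked genes between the sexes. The male-specific lethal (MSL) complex carries this out: its acetyltransferase subunit MOF acetylates lysine 16 of histone H4 across active X-linked genes, after the complex has been recruited to high-affinity sites and has spread from them with the help of the roX RNAs. The acetyl group loosens the contact between neighbouring nucleosomes. MOF also works outside this complex at promoters on all chromosomes, where the mark forms shorter peaks.

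The width of the regions chose the domains, so their widths are a description. The median domain was 16.9 kb wide, with quartiles of 12.3 and 24.5 kb and a range of 10.0 to 100.3 kb. Of the 261 domains, 108 were narrower than 15 kb, 102 reached 20 kb, 45 reached 30 kb and 10 reached 50 kb. The domains were 11.8% of the X regions but held 54.6% of the X bases in the combined list, 5.46 of 10.0 Mb, and occupied 24.3% of the X chromosome. The widest 26 domains held 23.6% of the domain bases. There was no break in the widths at the limit: the narrowest 3 members measured 10007, 10017 and 10083 bp, and the widest 3 regions left out measured 9999, 9993 and 9915 bp.

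The domains also carried high scores. The score is a single value per region given by the authors without a stated unit, and is used here only to rank regions within a list. The domains had a median score of 0.968, with a range of 0.562 to 1.40, against 0.659 for X regions of 3 to 10 kb, 0.528 for X regions under 3 kb and 0.484 for the rest of the series. The lowest scored domain lay at percentile 73.7 of the whole list, and 243 of 261 lay in its top 10%. None reached the very highest scores of the list, since the best domain stood at percentile 98.8. Across the 261 domains width and score had a Spearman rho of 0.47, and both come from the same calls.

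Every domain had covered bases in both replicates, and most were filled further by replicate 1. Replicate 1 regions covered 91.5% of the domain bases and replicate 2 regions 74.9%, a mean of 83.2% ± 11.7 (SD, n = 2). Bases covered in both replicates made up 72.4% of the domains, and at least 11.7% of each domain. Bases covered in neither made up 5.98%. The median domain was covered over 92.8% of its length in replicate 1, with a range of 45.2% to 100.0%, and over 74.3% in replicate 2, with a range of 14.8% to 99.2%. In 253 of 261 domains replicate 1 covered more, and in 8 replicate 2 did. The median difference, replicate 1 minus replicate 2, was 15.3 percentage points. Replicate 1 also called more of the genome, 3397 regions over 11.2 Mb against 2202 regions over 6.91 Mb in replicate 2. The read depths are unknown, and the part of depth in the difference was not tested. With 2 replicates of 1 group, no test between them was possible.

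Narrower X regions were filled less in the same lists. X regions of 3 to 10 kb, 393 in number, were covered over 70.7% of their bases in replicate 1 and 43.6% in replicate 2, and the 1550 X regions under 3 kb over 27.2% and 9.92%. Bases in both replicates were 72.4% of the domains, 37.2% of the 3 to 10 kb regions and 4.06% of the regions under 3 kb. No domain lacked a covered base in either replicate, whereas this was so for 54.7% of all combined regions in replicate 1 and 76.6% in replicate 2. The domains were chosen by width, with a median of 16891 bp against 1685 bp for all combined regions. A wide region has more room for a covered base, so nothing is read from this last comparison. The combined list and the replicate lists come from the same libraries, and these differences were not tested.

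Both lists cut many domains into pieces. A covered stretch is a run of bases inside the domain that lies within regions of a replicate. A domain was counted as broken when it held at least 2 stretches, as whole when 1 stretch filled at least 90% of it, and as shortened when a lone stretch filled less. In replicate 1, 153 domains (58.6%) were broken, 77 were whole and 31 were shortened. In replicate 2, 221 (84.7%) were broken, 10 were whole and 30 were shortened. Among all 6550 combined regions, 4.11% were broken in replicate 1 and 4.50% in replicate 2, 21.2% and 3.57% were whole, and 20.0% and 15.3% were shortened. A wide region has more room for a break, so nothing is read from the comparison of the broken shares. The 6550 regions also include 54.7% with no covered base in replicate 1 and 76.6% in replicate 2, and no domain was of this kind. The whole and shortened shares are therefore not comparable with those of the domains, and nothing is read from them either.

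**Figure D1:**
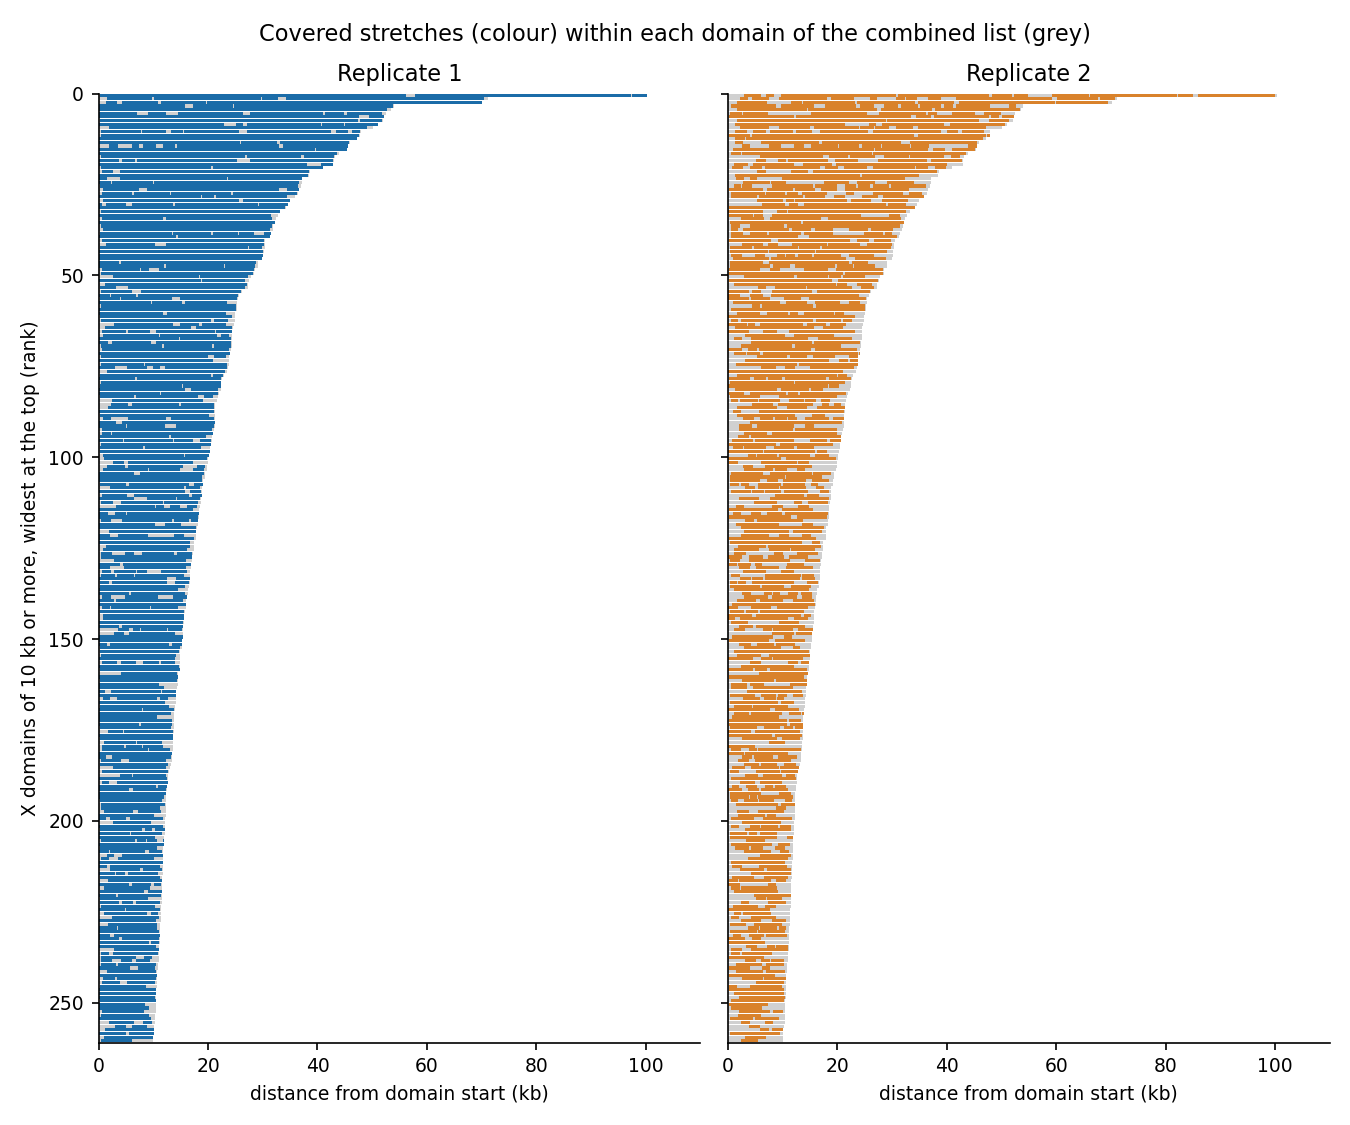
Each row is 1 of the 261 domains, widest at the top, drawn from its start (horizontal axis, kb). Grey is the extent in the combined list and colour marks the stretches covered by regions of replicate 1 (left) and replicate 2 (right), which fill 91.5% and 74.9% of the domain bases.

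The domains were split into 537 stretches in replicate 1 and 787 in replicate 2. The median was 2 stretches per domain in replicate 1 and 3 in replicate 2, and the most were 8 and 12. In replicate 1, 108 domains held 1 stretch, 75 held 2, 48 held 3 and 30 held at least 4. In replicate 2, 40 domains held 1 stretch, 83 held 2, 62 held 3 and 76 held at least 4. Replicate 2 had more stretches in 157 domains, replicate 1 in 43, and 61 had the same number. Both lists broke 135 of the domains. A further 61 were whole in replicate 1 and broken in replicate 2, and 9 were whole in both. The numbers of stretches had a Spearman rho of 0.38 between the replicates and the covered shares one of 0.64, across the same 261 domains of 1 combined list.

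The long pieces shrank more than the covered share did. The longest stretch of a domain had a median of 11.9 kb in replicate 1 and 7.45 kb in replicate 2, and the median share of the domain's width that it took up was 71.3% and 41.2%. A stretch of at least 10 kb remained in 172 domains in replicate 1 and in 69 in replicate 2. Seen from the replicate lists, all 194 regions of at least 10 kb on X in replicate 1 touched a domain and 160 lay wholly inside 1. In replicate 2 all 85 touched a domain and 83 lay inside.

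**Figure D2:**
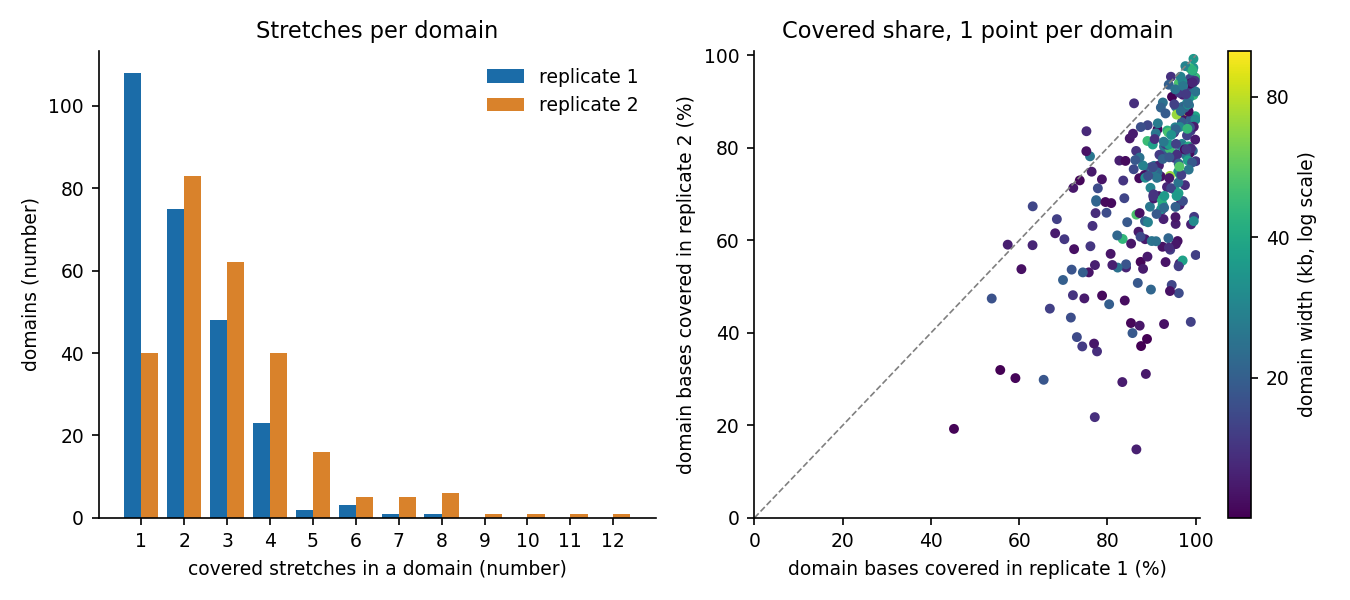
Left, the number of domains (vertical axis) with each number of covered stretches (horizontal axis) in replicate 1 and replicate 2. Right, the percent of bases covered in replicate 1 (horizontal) and replicate 2 (vertical), with 1 point per domain coloured by width; 253 of 261 points lie below the dashed line of equal cover.

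Most breaks were short. The 276 inner gaps of replicate 1, meaning uncovered runs between 2 stretches of a domain, had a median length of 427 bp, and 207 of them (75.0%) were shorter than 1 kb. The 526 inner gaps of replicate 2 had a median of 737.5 bp, and 322 (61.2%) were shorter than 1 kb. The count of broken domains therefore depended on how near regions may lie and still be taken as separate. When replicate regions less than 1 kb apart were joined, 59 domains were broken in replicate 1 and 138 in replicate 2. With a distance of 2 kb the counts were 18 and 66.

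Some inner gaps of the 2 replicates overlapped by at least 1 base. Of the 276 inner gaps of replicate 1, 132 (47.8%) overlapped an inner gap of replicate 2, and 79 were wholly covered in replicate 2. Of the bases in the replicate 1 gaps, 61.4% were also uncovered in replicate 2, where 25.1% of all domain bases were uncovered. Of the 526 inner gaps of replicate 2, 124 (23.6%) overlapped an inner gap of replicate 1 and 390 (74.1%) were wholly covered by it. Replicate 1 left uncovered 13.3% of the bases in the replicate 2 gaps and 8.48% of all domain bases. The shares of all domain bases include uncovered ends, which inner gaps leave out, so they are not a matched background. The overlap to be had from the number and lengths of the gaps alone was not computed, so shared positions were not tested. The domains were not simply the union of the replicate lists. The lists joined into 1 gave 1 stretch, not always over the whole width, in 124 domains and several in 137, so that the combined list ran across runs called in neither replicate.

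Shortening at the ends accounted for more lost bases than the inner gaps did in both lists. In replicate 1, 463.1 kb of domain sequence was uncovered, of which 273.2 kb (59.0%) lay outside the outermost stretches and 189.9 kb between stretches. In replicate 2, 1370 kb was uncovered, of which 786.8 kb (57.4%) lay at the ends and 582.9 kb between stretches. The bases lost at both ends of a domain together had a median of 655 bp in replicate 1 and 2515 bp in replicate 2. Left and right ends lost similar amounts: 134.4 and 138.9 kb in replicate 1, and 408.7 and 378.1 kb in replicate 2. More than 1 kb was missing from at least 1 end in 81 domains in replicate 1 and in 195 in replicate 2.

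The cover formed an arch over the domain. When each domain was divided into 10 equal parts, replicate 1 covered a mean of 74.4% of the first part, 96.8% of the fifth and 70.7% of the last. Replicate 2 covered 44.8% of the first part, 84.2% of the sixth and 45.9% of the last. The first part was wholly uncovered in 26 domains in replicate 1 and in 84 in replicate 2. Just outside the domains the cover was low, and it was higher farther out. In the kilobase just before the start it was 13.2% in replicate 1 and 5.43% in replicate 2, and in the fourth kilobase before the start it was 39.4% and 20.4%. A domain ends where its region of the combined list ends, so low cover beside the edge is partly built in. The combined list itself covered 29.6% of the first kilobase before the start, 58.0% of the fourth and 53.8% of the fifth. The mean over all of X outside the domains was 13.0% in replicate 1 and 7.11% in replicate 2.

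**Figure D3:**
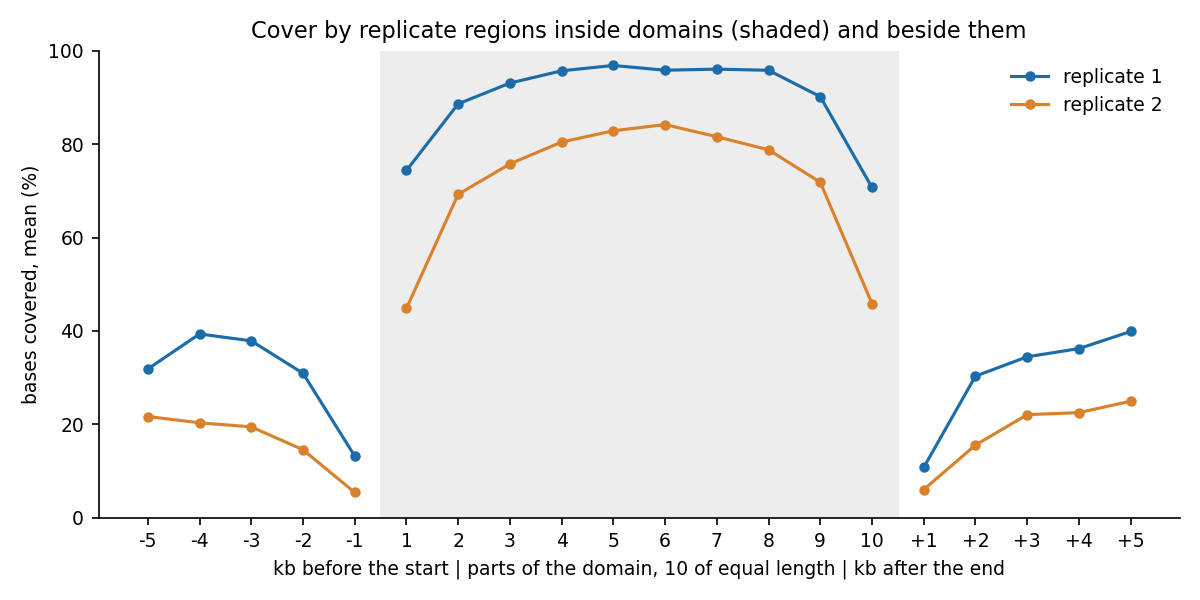
Mean percent of bases covered (vertical axis) by replicate 1 and replicate 2 in 10 equal parts of the domain (shaded) and in the 5 kb on each side, neighbouring domains left out. The cover is highest in the middle parts, reaching 96.8% in replicate 1 and 84.2% in replicate 2, and lowest in the kilobase next to each edge.

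The edges of the combined list matched those of replicate 1 more often than those of replicate 2. Of 522 edges, a replicate 1 region began or ended on the same side within 100 bp for 158, and a replicate 2 region for 45. In replicate 1 these were 84 starts and 74 ends, and in replicate 2 they were 20 starts and 25 ends. Over all combined regions, a start lay within 100 bp of one for 22.3% in replicate 1 and 5.02% in replicate 2, and an end for 22.2% and 5.37%. Of all combined regions, 54.7% had no covered base in replicate 1 and 76.6% had none in replicate 2. Such regions lower these shares, so it cannot be read from them that domain edges matched more often than other edges. Both edges were matched in 28 domains by replicate 1 and in 0 by replicate 2. The median distance from a domain start to the nearest start was 208 bp in replicate 1 and 942 bp in replicate 2. Within 500 bp the matched edges numbered 358 and 183. Regions of replicate 1 ran past an edge of 64 domains, by a median of 49.5 bp, and regions of replicate 2 past an edge of 27, by a median of 148 bp.

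Wider domains were filled better but were also broken into more pieces. The 45 domains of at least 30 kb were covered over 95.7% of their bases in replicate 1 and 81.6% in replicate 2. The 108 domains of 10 to 15 kb were covered over 87.0% and 66.4%. Of the widest class, 31 (68.9%) were broken in replicate 1 and 44 (97.8%) in replicate 2. Of the narrowest class, 49 (45.4%) and 76 (70.4%) were broken. A wide domain has more room for a break, so nothing is read from these shares. Per 10 kb of domain the widest class held fewer stretches, 0.654 in replicate 1 and 1.27 in replicate 2, against 1.34 and 1.66 in the narrowest class. The bases lost at both ends together had a median of 570 bp in replicate 1 and 1969 bp in replicate 2 in the widest class, and of 817 and 2831.5 bp in the narrowest. A loss of a given length takes a smaller share of a wide domain, so the better fill is partly built in. Covered share followed the score of the combined list, with a Spearman rho of 0.66 in replicate 1 and 0.82 in replicate 2 over the 261 domains, which share their libraries with the score.

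The 5 widest domains are given by their coordinates in FlyBase release 5. The widest lay on X from 15597650 to 15697970 and spanned 100.3 kb. It was covered over 98.0% in replicate 1, in 3 stretches of up to 56.0 kb, and over 88.0% in replicate 2, in 12 stretches of up to 21.0 kb. This domain was nearly filled in both lists and held the largest number of pieces in replicate 2. The next, from 11712414 to 11783502 (71.1 kb), was covered over 94.2% in 4 stretches in replicate 1 and over 73.9% in 11 stretches in replicate 2, where 16.0 kb were missing between stretches. The domain from 9107296 to 9177420 (70.1 kb) was covered over 95.7% in 4 stretches and over 87.2% in 7. In each of these 3 domains replicate 2 cut a long stretch of replicate 1 into several. The domain from 20060132 to 20114074 (53.9 kb) was covered over 96.3% in 3 stretches in replicate 1 and over 75.9% in 10 in replicate 2, where no stretch exceeded 8.27 kb. The fifth, from 2580904 to 2634428 (53.5 kb), was the least cut: 1 stretch of 52.7 kb covered 98.5% of it in replicate 1, and 4 stretches covered 93.7% in replicate 2.

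In replicate 1 the largest number of stretches was in a domain of 48.0 kb from 5650480 to 5698464, with 8 stretches over 89.1% of its bases in replicate 1 and 8 over 81.5% in replicate 2. A domain from 11575492 to 11610098 (34.6 kb) held 7 stretches in replicate 1 and 4 in replicate 2, and one from 1891504 to 1943942 (52.4 kb), the widest of 3 with 6 stretches in replicate 1, held 6 and 7. These domains were therefore cut in both lists. In the last of them the widest inner gap was 2082 bp long in replicate 1 and 7824 bp long in replicate 2.

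The domain from 17820392 to 17830580 (10.2 kb) was the least covered in replicate 1, at 45.2%, and was covered over 19.2% in replicate 2, with 47.2% of its bases in neither list. Its score lay at percentile 74.6. The domain from 21893016 to 21910878 (17.9 kb) was covered over 53.8% in replicate 1 and 47.4% in replicate 2, and the one from 13277980 to 13287986 (10.0 kb) over 55.7% and 32.0%. These 3 were thinly covered in both lists. The least covered in replicate 2 was a 12.3 kb domain from 10682538 to 10694828, at 14.8%, although replicate 1 covered 86.6% of it. In this domain a lone stretch of 1.82 kb remained in replicate 2. A 13.6 kb domain from 1216882 to 1230476 was covered over 77.1% in replicate 1 and 21.8% in replicate 2.

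Along X the domains were unevenly spaced, with many close neighbours and some long empty stretches. The 260 gaps between neighbouring domains had a median of 23.0 kb, quartiles of 4.30 and 91.1 kb and a range of 25 bp to 495.2 kb. Their mean was 63.3 kb and their SD was 1.39 times the mean. Of the gaps, 37 were no longer than 1 kb, 92 no longer than 10 kb and 121 (46.5%) no longer than 20 kb. At the other end, 59 gaps exceeded 100 kb and held 71.7% of the sequence between domains. The lengths of successive gaps had a Spearman rho of 0.03 over 259 pairs, which share a domain, and the widths of successive domains had a rho of 0.08 over 260 pairs. The median gap between X regions of at least 10 kb was 40.3 kb in replicate 1 alone and 118.1 kb in replicate 2 alone, which hold fewer of them. These are descriptions, with no test.

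**Figure D4:**
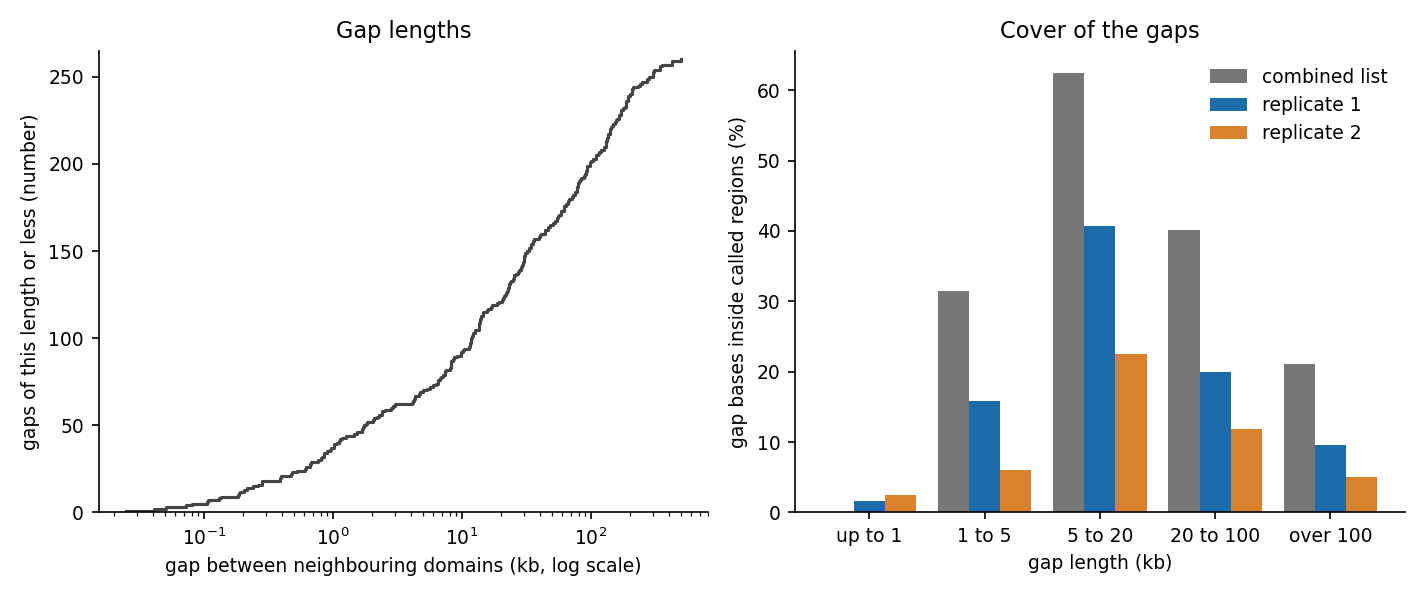
Left, the number of gaps between neighbouring domains (vertical axis) at or below each length (horizontal axis, kb, log scale), for all 260 gaps. Right, the percent of gap bases inside regions of the combined list, replicate 1 and replicate 2, by gap length; cover is highest in gaps of 5 to 20 kb, at 62.5%, 40.7% and 22.5%.

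Gaps of 5 to 20 kb were mostly filled by narrower regions of the mark, and longer ones were not. In the 51 gaps of 5 to 20 kb, narrower regions of the combined list took up 62.5% of the bases, and replicate 1 and replicate 2 covered 40.7% and 22.5%. In the 80 gaps of 20 to 100 kb these shares were 40.2%, 20.0% and 11.9%. In the 59 gaps over 100 kb they were 21.1%, 9.62% and 4.97%. In the 33 gaps of 1 to 5 kb they were 31.5%, 15.9% and 5.97%. The 37 gaps of up to 1 kb are too short to hold even the smallest region of the combined list, and 1 of them was bridged by a replicate. There a replicate 2 region of 4.57 kb, from 21194122 to 21198688, ran across the 81 bp between the domains that end at 21194202 and start at 21194284. Replicate 1 bridged none of the 37.

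Neighbouring domains were grouped into runs by the gaps between them, so the runs restate the gap lengths. Of the 260 gaps, 121 (46.5%) were within the limit of 20 kb used here. Grouping beyond what these gap lengths give was not tested. When domains no more than 20 kb apart were grouped, 190 of 261 (72.8%) fell into 69 runs of at least 2, and 71 stood alone. By the same distance, 57.7% of the X regions of at least 10 kb lay in runs in replicate 1 alone and 42.4% in replicate 2 alone. There were 45 runs of 2 domains, 13 of 3, 3 of 4 and 8 of at least 5, which together held 49 domains. The longest by number of domains held 8, from 19452850 to 19658984. It spanned 206.1 kb, of which 92.3% was domain, and its domains were covered over 94.8% in replicate 1, in 13 stretches, and over 79.7% in replicate 2, in 20 stretches. A run of 7 from 15597650 to 15890640 spanned 293.0 kb and included the widest domain. Its domains were covered over 95.6% in replicate 1 and 79.7% in replicate 2. Another run of 7, from 16154224 to 16341380, spanned 187.2 kb, with 93.2% and 75.6%. The 3 longest runs thus lay within the part of X between 15 and 20 Mb. Domains in runs had a median width of 17.3 kb and those alone 16.0 kb. They were covered over 92.0% in replicate 1 and 75.5% in replicate 2 when in runs, and over 90.2% and 73.3% when alone. The difference between domains in runs and domains alone was smaller than that between the replicates.

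The number of domains per 1 Mb ranged from 7 to 18. The 22 full windows of 1 Mb held 11.9 ± 3.30 domains (SD over windows), with a median of 10.5, and the variance of the counts was 0.918 times their mean. For X regions of at least 10 kb in replicate 1 alone this ratio was 1.26 and in replicate 2 alone 1.76, and with a width limit of 8 kb in the combined list it was 1.45, so whether it lies above or below 1 depended on the list and the limit. The densest window was 16 to 17 Mb with 18 domains, which covered 35.7% of it, and the sparsest was 18 to 19 Mb with 7 domains over 17.2%. Domain cover of a window ranged from 13.1% at 3 to 4 Mb to 38.4% at 11 to 12 Mb. Each window contained domains, and the domains held 36.1% to 66.7% of the bases covered by the combined list there. Replicate 1 covered 81.1% to 95.5% of the domain bases of a window and replicate 2 covered 61.2% to 82.1%. The window from 3 to 4 Mb had the lowest value in both replicates. Replicate 1 was above replicate 2 in all 22 windows.

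The longest stretch without a domain ran from 20396745 to 20891923, over 495.2 kb. The combined list had 18 narrower regions there, the widest of 2695 bp, over 5.49% of the sequence. Replicate 1 covered 1.77% of it and replicate 2 covered 0.808%. The next was the end of the chromosome arm, from 21947691 to 22422827 (475.1 kb), with 13.0% in the combined list, 5.65% in replicate 1 and 2.68% in replicate 2. The third ran from 11923035 to 12347589 (424.6 kb). It was covered over 16.4% in the combined list, 5.15% in replicate 1 and 0% in replicate 2. Unmappable sequence was not examined, so a stretch without called regions cannot be read as lacking the mark.

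Regions of the replicate lists that touched a domain were wider and ranked higher than the other X regions of the same list. In replicate 1, 537 such regions had a median width of 6959 bp and a median score at percentile 88.2 of their list, against 1952 bp and percentile 65.1 for the other 847 X regions. In replicate 2, 786 such regions had 3711 bp and percentile 75.8, against 1865 bp and percentile 58.9 for the other 504. The domains held 69.4% of the X bases called in replicate 1 and 77.2% of those called in replicate 2. Width chose the domains, and a wide region touches a domain more readily, so the choice itself favoured wide regions here. The combined list belongs to the same series of 2 ChIP replicates as the replicate lists, and how it was made is not stated. The lists are not taken as independent, so these values describe the domains and do not test them.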

How the data were processed

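The labels' protocols describe formaldehyde fixation (1.8%), immunoprecipitation and sequencing of embryo chromatin. The submitters' processing notes name Bowtie 0.12.7. For the region caller, the threshold and the making of the combined list, nothing is given in the sources used here. The deposited files give start, end and a score for each region, and the unit of the score is not stated. Coordinates are in FlyBase release 5, per the file headers, and count from 1. The smallest region is 1301 bp in the replicate lists and 1001 bp in the combined list. Input libraries are not analysed here by themselves. No read counts are given, so depth is unknown and no interval was computed.

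Domains were taken from the combined list as deposited. Replicate regions that overlapped or touched were merged and clipped to each domain, and an overlap of 1 base counted. Windows took a domain by its midpoint. Python 3.11.15, numpy 2.4.6, pandas 2.3.3 and scipy 1.17.1 were used, and the interval functions were tested on simulated data. Domains named by coordinates are the 5 widest, the 3 on each side of the width limit, the 3 with most stretches and the 3 least covered in each replicate, the 3 longest runs, the 3 longest stretches without a domain and the extreme windows. The bridged gap, and the windows of lowest and highest domain cover, were picked after their values were seen. The members and all measures were chosen with earlier results of these data known. Genes and sequences are not reported, because the annotation used here for names is in release 6 and the domains are in release 5. Alternatives changed the width limit, the list, the joining of regions, the score and the windows.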

Additional observations from a re-analysis of the deposited data

How the results depend on the processing

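Of 85 alternatives to 11 results, 48 stayed within 1.5 times of a count or within the spread between replicates (1 SD, n = 2) of a value, and 37 moved further. These are wide limits. For the median gap the spread was 55.0 kb, more than the 23.0 kb of the gap itself. A median gap of 54.8 kb at a width limit of 15 kb therefore counted as within it. So did 220 broken domains in replicate 1, against 153, after combined regions less than 1 kb apart were merged. With a width limit of 15 kb there were 153 domains, 43 whole in replicate 1, 4 whole and 145 broken in replicate 2, and 49.0% of domains in runs. A limit of 8 kb gave a variance of window counts 1.45 times their mean. Merging combined regions less than 1 kb apart before the limit was applied gave 60.5% of domain bases in both replicates, with 17 domains whole in replicate 1 and 1 in replicate 2. Joining replicate regions less than 500 bp apart left 93 broken in replicate 1 and raised the whole domains to 128 in replicate 1 and 24 in replicate 2. Under 1 kb, 59 were broken and 156 whole in replicate 1, 138 and 39 in replicate 2; under 2 kb, 18 and 192, and 66 and 79. Joining removes breaks by construction. Asking for 95% of the bases left 2 whole in replicate 2. When the width limit was applied to bases in either replicate, 59.9% of domains lay in runs and the window variance was 1.56 times the mean; for bases in both replicates there were 77 domains, a median gap of 136.3 kb, 40.3% in runs and a variance ratio of 1.52. Runs by distances of 10 kb and 50 kb held 57.9% and 85.4% of domains. Edges matched within 500 bp numbered 358 in replicate 1 and 183 in replicate 2. Leaving out a replicate gave 85 to 194 domains, 74.9% to 91.5% of domain bases covered, median gaps of 40.3 to 118.1 kb, 42.4% to 57.7% of domains in runs and variance ratios of 1.26 to 1.76. The lower count, the longer gap, the lower share in runs and the higher ratio are those of replicate 2 alone. A limit on the score of combined regions at their median removed no domain, so it could not move a result. Asking for 500 covered bases per stretch changed no count of broken or whole domains. Both kinds of alternative returned the main values and are among the 48. No paired analysis was possible because only region lists of the ChIP libraries are used here, and the inputs that share their numbers enter as controls.

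With 2 replicate lists of unknown depth, a base outside a list is a base not called. The breaks, the shortening and the matched edges measure the calling as well as the mark, and their parts cannot be told apart from these files.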

Other observations

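Outside X, 1 region of the combined list reached 10 kb. It lay on XHet, the scaffold of X heterochromatin, from 56494 to 89108 and spanned 32.6 kb, with a score at percentile 94.3 of the list. Replicate 1 covered 94.7% of it in 1 stretch of 30.9 kb. Replicate 2 covered 69.1% in 7 stretches, none longer than 5.54 kb. Like most broad domains on X, it was broken in replicate 2, and like 77 of them it was whole in replicate 1.

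The 3 domains with the largest excess of cover in replicate 1 over replicate 2 were chosen after their values were seen. They lay from 10682538 to 10694828 (86.6% covered in replicate 1 and 14.8% in replicate 2), from 3692642 to 3704206 (88.7% and 31.1%) and from 17170650 to 17186302 (98.9% and 42.4%). In the opposite direction, the domain from 8288522 to 8301588 (13.1 kb) was covered over 75.2% in 1 stretch in replicate 1 and over 83.6% in 3 stretches in replicate 2. It had the widest margin among the 8 domains with more cover in replicate 2.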
